A study of Homo sapiens with 6 samples.

Results

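The integrin receptors and their laminin, fibronectin and vitronectin ligands were examined in A172 cells, an established human glioblastoma line, that had been made to express RBFOX1. Members were taken by gene symbol, and that choice was made with earlier results of these data known. They were the 18 integrin alpha and 8 integrin beta genes, the 12 laminin chain genes, FN1 (fibronectin) and VTN (vitronectin), which makes 40 of the 58051 genes in the count tables. All 40 were found in each library, and 36 of them had the minimum of 10 counts summed over the 6 libraries that was required for a test. RBFOX1 is an RNA-binding protein that recognises TGCATG, written in DNA letters. Stable A172 lines carried the lentiviral plasmid pLX317-RBFOX1 or, as control, pLX317-GFP, and 3 libraries of rRNA-depleted total RNA were sequenced from each. Both groups therefore shared the parental line and the viral transduction and differed in the protein that was expressed. They were also separately made lines, so other differences between the lines cannot be told apart from those of the protein. The methods call the 3 samples of a group biological replicates but do not give the time from transduction to RNA extraction, or whether the lines were clones or pools.

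Integrins are receptors in the cell membrane, each made of an alpha and a beta subunit, that hold cells to the extracellular matrix and link it to actin inside the cell. The alpha subunit largely sets the ligand: some alphas bind collagens, some bind laminins, and some bind the short Arg-Gly-Asp (RGD) sequence of proteins such as fibronectin and vitronectin. ITGB1 pairs with most alpha subunits, while several other beta subunits pair with ITGAV. Laminins are cross-shaped proteins of basement membranes, each assembled from an alpha, a beta and a gamma chain. In glioblastoma, integrins and laminins are known for their part in the migration of tumour cells along vessels and brain matrix.

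The counts on genes summed to between 7433414 and 23249221 per library, and the shallowest was RBFOX1 library 1. Values below are normalised counts, that is, counts scaled to the mean library size after trimmed-mean (TMM) normalisation. On that scale 3 counts, the limit that a count of 0 allows, were worth 1.82 to 5.44 depending on the library. For RBFOX1 itself, the GFP libraries held 4, 0 and 1 counts and the RBFOX1 libraries 10276, 16467 and 21451. Of the markers of the line, VIM, NES and EGFR were well expressed in both groups, whereas the glial genes GFAP and S100B lay below 3 normalised counts in the mean of each group. Of the 9 markers of the line, 8 were tested: NES, SOX2 and PDGFRA were higher, VIM, CD44 and OLIG2 lower, with log2 fold changes of 0.60, 2.53, 1.58, -0.65, -0.90 and -0.50, and EGFR and GFAP did not pass. As these are bulk samples, fewer cells that express a gene and less RNA per cell cannot be told apart.

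The motif of RBFOX1 was present in the 3′ UTR of several members, and the windows below show it for receptors that turned out lower, for a receptor that turned out higher and for a laminin chain. Each line gives 30 bases of the canonical transcript in the sense of the RNA, from GRCh38, with TGCATG in capitals.
ITGA2, site 1: aatttacacactTGCATGaattactgtata
ITGA2, site 2: gatttaaaattgTGCATGactcatttcagc
ITGA2, site 3: tgtaaaaataaaTGCATGtttgtacaaaaa
ITGA3: catcacggatggTGCATGggctcgccgtgt
ITGA5: gaacactaactaTGCATGgtgccccaggac
ITGAV: agactttataacTGCATGaacttggatttt
ITGB1: tatcaggttgtgTGCATGaaatttttatag
ITGB8: tgtgtagttttaTGCATGtgtgtttatggt
ITGA11: tctaatcagcttTGCATGgtttgttttgag
LAMB2: cactgccccacaTGCATGtctgcctatgca

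The ITGA2 windows lie at chr5:53091706-53091735, chr5:53093862-53093891 and chr5:53094559-53094588 on the plus strand, where the motif starts 1119, 3275 and 3972 bases past the stop codon of a 3′ UTR of 4180 bases. The ITGA3 window lies at chr17:50089537-50089566 (plus strand), 471 bases past the stop codon. Those of ITGA5, at chr12:54395760-54395789 (minus strand), and ITGAV, at chr2:186677770-186677799 (plus strand), start 516 and 490 bases past it. The ITGB1 window is chr10:32900341-32900370 (minus strand, 1212 bases past the stop codon), and the first of the 2 ITGB8 sites is chr7:20410569-20410598 (plus strand, 584 bases past it). The ITGA11 window is chr15:68299037-68299066 (minus strand, 4005 bases) and the LAMB2 window chr3:49121166-49121195 (minus strand, 43 bases). The letters TGCATG were searched on the strand of the transcript only, over the whole 3′ UTR.

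Counted over all 40 members, 18 held TGCATG in the canonical 3′ UTR. By the outcome of the test described next, these were 10 of the 19 members that were lower, 2 of the 9 that were higher, 4 of the 8 that did not pass and 2 of the 4 that were not tested. Of 14074 tested protein-coding genes, 36.5% held it. Because a longer UTR holds the letters more often, the first 1000 bases of UTRs of at least that length were also compared, where 6 of 15 lower members, 0 of 3 higher members and 26.2% of 8089 genes held it. The members with some of the largest falls were on both sides: ITGA2 held 3 sites, all beyond the first 1000 bases, while LAMB3 and ITGA6 held none. LAMA1, LAMA3, LAMA4, ITGA7, ITGA10, ITGAE and VTN, which were all higher, held none either. LAMA2 and ITGA11, also higher, held 1 site each, at 100 and 4005 bases past the stop codon. The LAMA2 UTR, of 219 bases, was too short to enter the comparison over the first 1000 bases. So were those of VTN (85 bases), ITGAE (219), LAMA1 (337), LAMA3 (418) and ITGA7 (490), and that of LAMB3 (401), which was lower. In UTRs this short the letters are less often found. A match is a run of letters and was not tested for binding.

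Integrin RNA was mostly lower in RBFOX1 cells, laminin alpha chains were mostly higher, and the tested laminin beta chains were lower or did not pass the test. Of the 36 members tested, 19 were lower and 9 were higher past the 0.05 threshold of the adjusted p (by edgeR's quasi-likelihood test, with adjustment over all 20536 genes tested), and 8 did not pass. In all, 77.8% of the members passed, against 46.7% of all genes and 59.1% of the protein-coding genes tested. The share that fell was 52.8%, against 22.9% of all genes and 28.8% of protein-coding genes, and the share that rose was 25.0%, against 23.7% and 30.3%. Of these, 9 fell by 1 or more on the log2 scale, which is 25.0% of the tested members against 4.48% of all and 4.34% of protein-coding genes, and 7 rose by as much, which is 19.4% against 8.23% and 9.47%. The median log2 fold change was -0.60 over the tested members and 0.0051 over all genes tested. By class, 13 of the 23 tested integrins were lower and 4 higher (median -0.69), and 5 of the 11 tested laminin chains were lower and 4 higher (median -0.063). The 3 RBFOX1 libraries lay entirely below the 3 GFP libraries for 19 members (26.5% of all genes) and entirely above them for 9 (26.9% of all genes). These shares describe the list, and no test over the list was made.

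**Figure D1:**
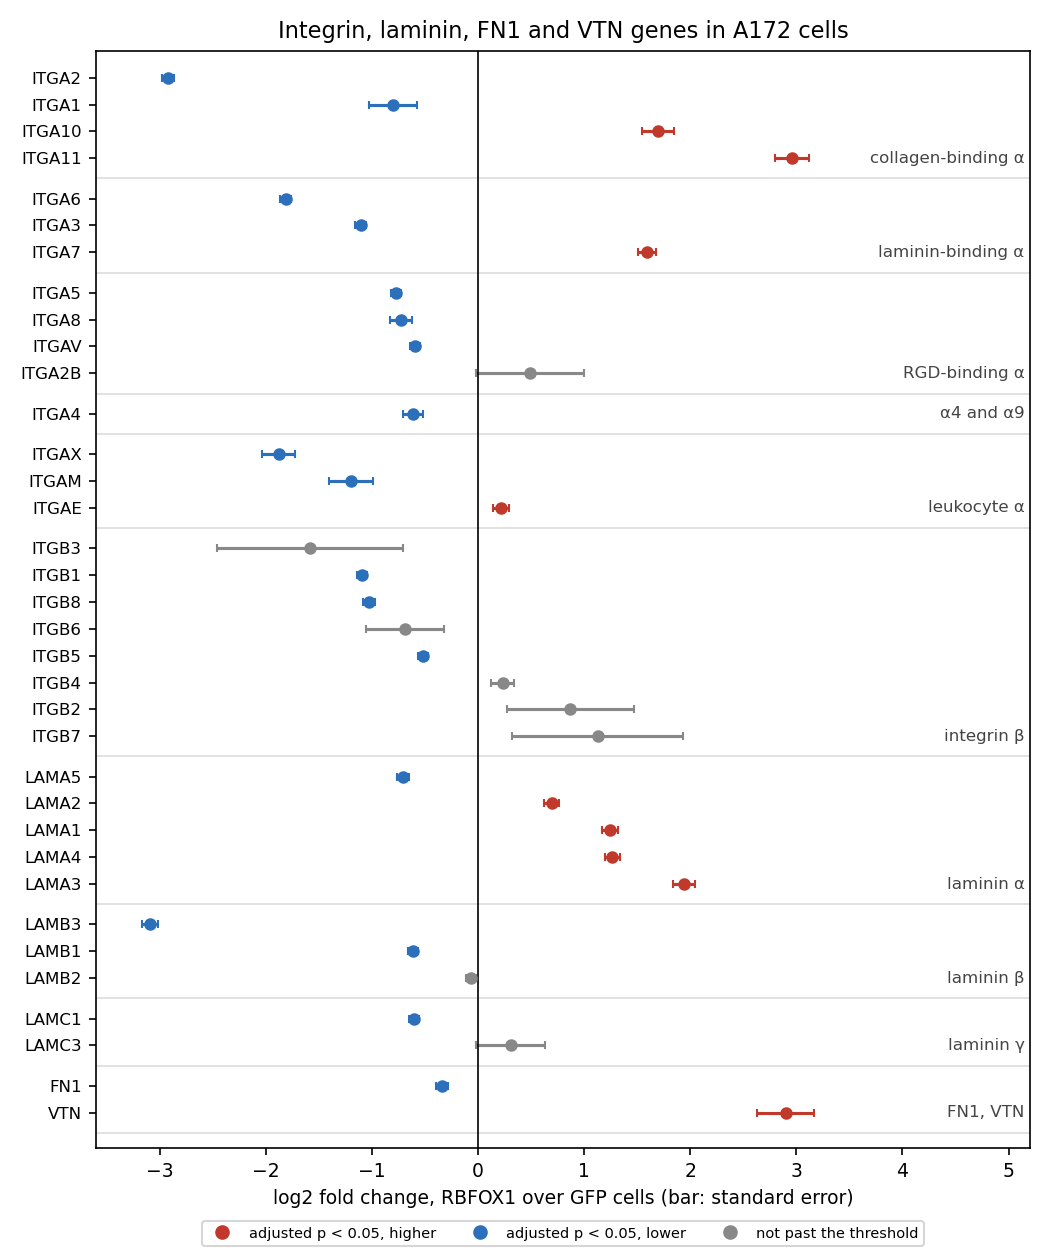
Log2 fold change (x axis, RBFOX1 over GFP cells) of tested members, grouped by subunit or chain class, with bars for the standard error and colours for the call. Alpha subunits lie on both sides of 0, from -2.92 for ITGA2 to 2.96 for ITGA11, and 4 of the 5 laminin alpha chains lie above it while LAMB3, at -3.10, lies far below.

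Among the collagen-binding alpha subunits, the one that dominated in GFP cells fell strongly and the 2 that are typical of fibroblasts and cartilage rose from low levels. ITGA2 (chromosome 5, 52989340 to 53094779, plus strand), which with ITGB1 forms a receptor for collagens and also laminins, read 15577, 15762 and 15779 normalised counts in the GFP libraries and 1908, 2121 and 2164 in the RBFOX1 libraries. The libraries within a group were close together and the groups were far apart. Its log2 fold change was -2.92 (standard error 0.0549, adjusted p = 9.42e-19), which made RBFOX1 cells 7.59-fold lower. ITGA11 (chromosome 15, 68296532 to 68432163, minus strand), a fibrillar collagen receptor of mesenchymal cells, read 21.9, 17.5 and 20.02 in GFP and 176, 144 and 158 in RBFOX1 libraries. No library of one group came near the other, and the gene was 7.76-fold higher (log2 fold change 2.96, standard error 0.160, adjusted p = 5.36e-12). ITGA10 (chromosome 1, 145891208 to 145910111, minus strand), a collagen receptor of cartilage, read 48.6, 42.0 and 33.7 against 151, 140 and 129. Here too the groups were apart, with RBFOX1 cells 3.24-fold higher (log2 fold change 1.70, standard error 0.148, adjusted p = 8.26e-09). ITGA1, a receptor for basement membrane collagen, was low in both groups and fell from 36.9 ± 4.44 to 20.8 ± 2.20 (SD, n = 3; log2 fold change -0.80, adjusted p = 0.00562). That call was lost with DESeq2 (adjusted p = 0.0707) and with counts thinned to the smallest library (adjusted p = 0.145), and ITGA1 exons overlap PELO on the same strand by 499 bases, where reads are left out as ambiguous.

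Per length of transcript, in RPKM (reads per kilobase of transcript, scaled to library size), the collagen-binding alpha subunits together fell from 145 ± 0.941 to 22.2 ± 1.03. ITGA2 made up 99.3% of that summed level in GFP cells and 85.4% in RBFOX1 cells. ITGA10 went from 0.401% to 8.88% of it and ITGA11 from 0.0964% to 5.10%, so that ITGA2 was still the most abundant of the 4 after its fall.

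The laminin-binding alpha subunits showed the same mixture. ITGA3 (chromosome 17, 50055968 to 50090481, plus strand), the alpha subunit of a main laminin receptor, read 28635, 27300 and 27578 in GFP and 13727, 12118 and 12904 in RBFOX1 libraries. The groups were apart, with some spread between the RBFOX1 libraries. It was 2.16-fold lower (log2 fold change -1.11, standard error 0.0517, adjusted p = 6.12e-13). ITGA6 (chromosome 2, 172427354 to 172506459, plus strand), which pairs with ITGB1 or with ITGB4 to bind laminin, read 11544, 11197 and 11374 against 3080, 3388 and 3216. That was a 3.52-fold fall with no overlap (log2 fold change -1.82, standard error 0.04998, adjusted p = 2.01e-16). ITGA7 (chromosome 12, 55684568 to 55716404, minus strand), the laminin receptor alpha subunit of muscle, moved the other way, from 220, 181 and 205 to 570, 611 and 656. All RBFOX1 libraries were above all GFP libraries, and the gene was 3.01-fold higher (log2 fold change 1.59, standard error 0.0851, adjusted p = 4.97e-12). Summed per length, the 3 subunits fell from 555 ± 12.7 to 241 ± 9.59 RPKM, and within that sum ITGA3 made up 74.0% and then 78.9%, ITGA6 25.4% and then 16.6%, and ITGA7 0.636% and then 4.44%.

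Of the 4 alpha subunits that bind RGD, 3 fell, each by less than 1 on the log2 scale, and none rose past the threshold. ITGA5 (chromosome 12, 54395261 to 54419266, minus strand), the fibronectin receptor subunit, read 9850, 9757 and 9572 in GFP and 5884, 5638 and 5537 in RBFOX1 libraries. With no overlap it was 1.71-fold lower (log2 fold change -0.78, standard error 0.0467, adjusted p = 3.03e-11). ITGAV (chromosome 2, 186590010 to 186680901, plus strand), which binds vitronectin, fibronectin and other RGD proteins with several beta partners, read 5994, 5960 and 5854 against 3818, 4041 and 3915. Its groups were also apart, and it was 1.51-fold lower (log2 fold change -0.60, standard error 0.0462, adjusted p = 1.46e-09). ITGA8, known as a nephronectin receptor subunit, fell from 245 ± 3.77 to 147 ± 19.9 (log2 fold change -0.72, adjusted p = 6.88e-06). ITGA2B, the platelet fibrinogen receptor subunit, was near the detection limit, at 3.64, 3.50 and 10.5 against 7.26, 9.99 and 6.39, and did not pass (log2 fold change 0.49, adjusted p = 0.460). ITGA4, which binds VCAM1 and an alternative segment of fibronectin, fell from 359 ± 5.38 to 235 ± 29.0 (log2 fold change -0.61, adjusted p = 1.07e-05). ITGA9, its closest relative, was not tested, with counts of 1, 0 and 1 in the GFP group and of 1, 1 and 3 in the RBFOX1 group.

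Alpha subunits best known from leukocytes were low but measurable in some cases. ITGAX (chromosome 16, 31355134 to 31382999, plus strand), a complement receptor subunit, read 117, 128 and 109 in GFP and 32.6, 30.0 and 32.9 in RBFOX1 libraries. ITGAM, the neighbouring gene and the alpha subunit of another complement receptor (chromosome 16, 31259967 to 31332892, plus strand), read 54.0, 49.0 and 60.05 against 32.6, 19.98 and 21.9. Both pairs of groups were without overlap, with ITGAX 3.68-fold lower (log2 fold change -1.88, standard error 0.155, adjusted p = 3.43e-09) and ITGAM 2.29-fold lower (log2 fold change -1.20, standard error 0.209, adjusted p = 7.54e-05). ITGAE, which binds E-cadherin, was 288, 293 and 280 in GFP and 345, 325 and 333 in RBFOX1 libraries. This small rise (log2 fold change 0.22, standard error 0.0776, adjusted p = 0.0270) lost its call in 7 of 14 alternatives. Over all 14 the adjusted p ranged from 0.0143 to 0.125. It was 0.0787 without GFP library 3, 0.0509 without RBFOX1 library 1 and 0.0639 without RBFOX1 library 3. ITGAL and ITGAD, of lymphocytes and macrophages, had at most 1 count in any library.

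Markers of leukocytes were read beside these genes. CD3E had no count in any library, SPI1 was below 1 normalised count in the mean of each group, and CD14 and CD68 below 7. PTPRC rose from 16.1 ± 6.08 to 60.3 ± 9.95, and LCP1, an actin-bundling protein that tumour lines also express, fell from 572 ± 18.5 to 50.03 ± 11.9. In all, 4 of the 7 markers could be tested, with 1 higher and 1 lower, and their summed level went from 11.6 to 12.5 RPKM in GFP libraries to 1.91 to 2.17 RPKM in RBFOX1 libraries. LCP1 made up most of that sum, at 11.3 ± 0.367 and then 0.990 ± 0.235 RPKM, while PTPRC went the other way, from 0.217 ± 0.0818 to 0.811 ± 0.134 RPKM, so the sum does not describe the list. Whether any of these had a part in the values of ITGAX and ITGAM was not tested. ITGB2, the beta subunit that ITGAX and ITGAM need to reach the surface, was near the detection limit in both groups, at 3.04, 3.50 and 3.16 against 7.26, 8.88 and 2.74 (log2 fold change 0.87, adjusted p = 0.240).

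**Figure D2:**
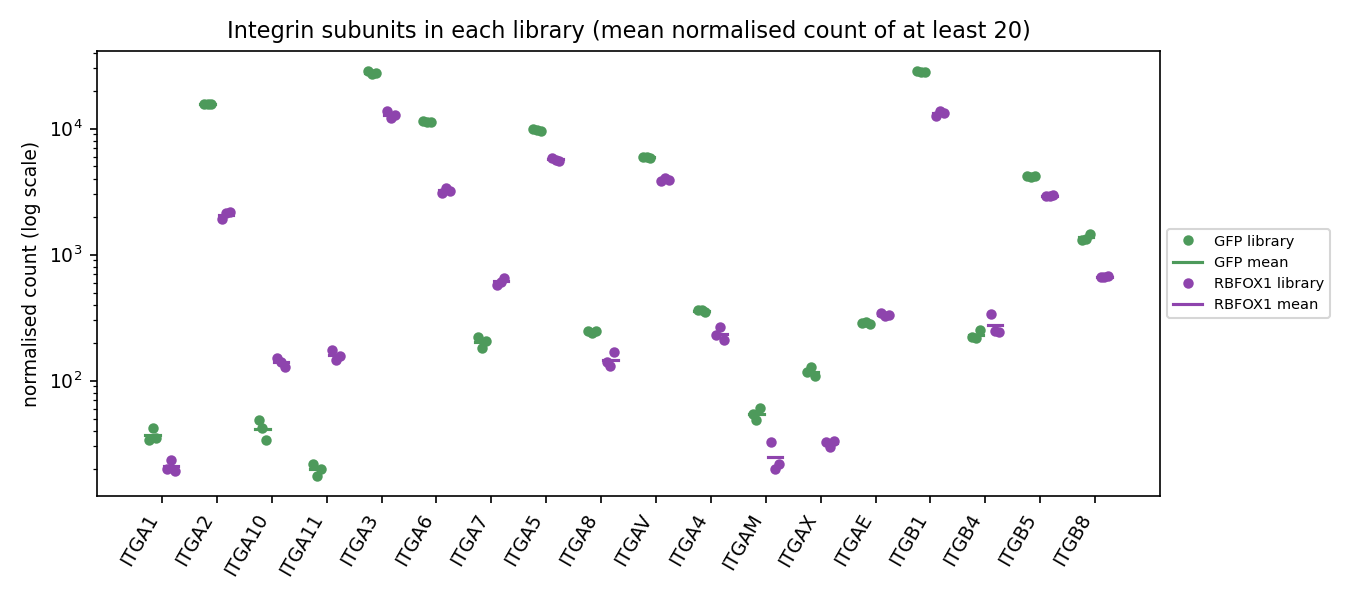
Normalised count (y axis, log scale) of the integrin subunits with a mean of at least 20, with a point for each of the 3 GFP and 3 RBFOX1 libraries and a line for the group mean. ITGA2 drops from about 15706 to 2064 while ITGA11 climbs from 19.8 to 159, and ITGB4 is the subunit plotted whose groups overlap.

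Among the beta subunits, the common partner ITGB1 and 2 partners of ITGAV fell, and none rose past the threshold. ITGB1 (chromosome 10, 32887273 to 33005792, minus strand) read 28537, 28284 and 28094 in GFP and 12546, 13806 and 13347 in RBFOX1 libraries. With canonical transcript lengths it was the most abundant integrin RNA in both groups, at 546 ± 4.29 and then 255 ± 12.3 RPKM, and was 2.14-fold lower (log2 fold change -1.10, standard error 0.0486, adjusted p = 2.74e-13). Its processed copy ITGB1P1, which can share its reads, had a log2 fold change of -1.17, and with the counts of both added together the log2 fold change was -1.10. ITGB8 (chromosome 7, 20330702 to 20415754, plus strand), which with ITGAV binds latent TGF-beta, read 1308, 1339 and 1453 against 667, 665 and 674. The groups did not overlap, and it was 2.04-fold lower (log2 fold change -1.03, standard error 0.0598, adjusted p = 1.78e-11). ITGB5, another partner of ITGAV and a vitronectin receptor subunit, read 4219, 4137 and 4218 against 2891, 2908 and 2979, a smaller fall that was again without overlap (log2 fold change -0.52, standard error 0.0456, adjusted p = 9.50e-09).

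The other 5 beta subunits did not pass the test. ITGB4, the partner of ITGA6 in the hemidesmosomes of epithelial cells, read 222, 217 and 254 in GFP and 339, 249 and 243 in RBFOX1 libraries. The groups overlapped, with RBFOX1 library 1 well above the rest, and the adjusted p was 0.102 (log2 fold change 0.23, standard error 0.112). The log2 fold change was 0.10 without RBFOX1 library 1 (adjusted p = 0.433) and 0.33 without RBFOX1 library 3 (adjusted p = 0.0476). ITGB3, the vitronectin and fibrinogen receptor subunit, was counted 4, 6 and 7 times in the GFP libraries against 3, 1 and 0 times in the RBFOX1 libraries, a ratio of GFP to RBFOX1 cells of 3.14 with a 95% counting interval of 1.02 to 12.8. Its log2 fold change of -1.59 did not pass (adjusted p = 0.135) and rested on single libraries. It ranged from -3.05 without RBFOX1 library 1 (adjusted p = 0.0329) to -0.82 without RBFOX1 library 3 (adjusted p = 0.475), passed without GFP library 1 (-2.08, adjusted p = 0.0384) and did not pass without any of the others. ITGB3 exons also overlap another protein-coding gene on the same strand by 2266 bases, where reads are left out as ambiguous. ITGB6 and ITGB7, known from epithelia and lymphocytes, were low as well, ITGB6 with 14.0, 17.5 and 10.5 against 5.44, 7.77 and 11.0 (adjusted p = 0.135) and ITGB7 with 2, 2 and 2 counts against 3, 6 and 1 (adjusted p = 0.253).

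On the per-length scale the order of the alpha subunits in GFP cells was ITGA3 at 410 ± 10.4 RPKM, ITGA5 at 165 ± 2.40, ITGA2 at 144 ± 1.03, ITGA6 at 141 ± 2.15 and ITGAV at 60.8 ± 0.747, and every other alpha subunit was below 6 RPKM. ITGA2 and ITGA6 were the closest of these neighbours and differed by little more than their spread. In RBFOX1 cells ITGA3 at 190 ± 11.9 and ITGA5 at 96.4 ± 3.03 kept the first places, ITGAV at 40.2 ± 1.15 and ITGA6 at 39.99 ± 1.92 did not differ beyond their spread, and ITGA2 at 19.0 ± 1.26 came next. With exons of all transcripts as the length, a choice added after the data were seen, the order behind ITGA3 changed: ITGA2 at 23.9% and ITGA6 at 20.5% of the summed alpha subunit level came before ITGA5 at 15.8% in GFP cells, and ITGA2 at 8.06% came before ITGAV at 6.26% in RBFOX1 cells. On that length ITGB1, at 140 and then 65.5 RPKM, was below ITGA3, at 205 and then 94.95 RPKM, and in GFP cells also below ITGA2, at 143 RPKM. With the canonical lengths ITGA2 went from 15.4% to 4.62% of the summed alpha subunit level, and ITGAV from 6.46% to 9.78%. The alpha subunits together went from 940 ± 13.7 to 411 ± 9.96 RPKM, a ratio of 0.437, and the beta subunits from 628 ± 3.74 to 312 ± 11.95 RPKM, a ratio of 0.497. ITGB1 made up 86.9% of the beta sum in GFP and 81.8% in RBFOX1 cells, and ITGB5 10.8% and 15.2%.

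The laminin alpha chains, which carry the globular domains that integrins bind, rose in 4 of 5 cases. LAMA3 (chromosome 18, 23689453 to 23956222, plus strand), the alpha chain of the laminin of epithelial basement membranes, read 81.3, 79.4 and 94.8 in GFP and 299, 338 and 331 in RBFOX1 libraries. The lowest RBFOX1 library was more than 3 times the highest GFP library, and the gene was 3.83-fold higher (log2 fold change 1.94, standard error 0.103, adjusted p = 4.52e-12). LAMA4 (chromosome 6, 112107931 to 112254939, minus strand), a chain of vessel walls, read 282, 302 and 285 against 660, 747 and 674. It did not overlap between groups and was 2.40-fold higher (log2 fold change 1.27, standard error 0.0740, adjusted p = 1.93e-11). LAMA1 (chromosome 18, 6941742 to 7117797, minus strand), the chain of embryonic basement membranes, read 236, 225 and 238 against 582, 560 and 524. It too was apart in every library, at 2.37-fold higher (log2 fold change 1.24, standard error 0.0763, adjusted p = 3.98e-11). LAMA2, the chain of muscle and nerve, rose less, from 561 ± 55.5 to 896 ± 50.6 (log2 fold change 0.69, adjusted p = 1.26e-07). LAMA5 (chromosome 20, 62307955 to 62367312, minus strand), the most widely expressed alpha chain of adult tissue, was the exception and read 1728, 1755 and 1980 against 1125, 1100 and 1111, without overlap between the groups (log2 fold change -0.71, standard error 0.0589, adjusted p = 3.87e-09).

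LAMB3 (chromosome 1, 209614870 to 209652425, minus strand), the beta chain that joins LAMA3 in the laminin of epithelia, had the most negative log2 fold change of all tested members. It read 1115, 1091 and 1081 in GFP and 118, 130 and 132 in RBFOX1 libraries. No library came near the other group, and LAMB3 was 8.55-fold lower (log2 fold change -3.10, standard error 0.0768, adjusted p = 4.08e-17). LAMA3 and LAMB3, whose products assemble with each other, thus moved in opposite directions.

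Markers of epithelial cells were read beside these chains: 5 of 6 were higher in RBFOX1 cells and none was lower. KRT8 and KRT18 were abundant in both groups, while EPCAM did not pass (adjusted p = 0.242) and CDH1 was below 5 normalised counts in the mean of each group. The GFP libraries held few counts of KRT5 (1, 0 and 0, against 18, 31 and 48 in RBFOX1 libraries) and of CDH1 (0, 1 and 0, against 3, 4 and 5). The summed level of the 6 markers was 421 to 434 RPKM in GFP and 1569 to 1634 RPKM in RBFOX1 libraries. KRT18 made up most of that sum, at 323 ± 7.74 and then 1271 ± 26.3 RPKM. KRT8 made up most of the rest, at 102 ± 1.16 and then 324 ± 8.25 RPKM. KRT19 came next, at 1.11 ± 0.116 and then 1.80 ± 0.439 RPKM, so the sum describes KRT8 and KRT18 and not the list. All 4 endothelial markers tested were also higher, with a summed level of 1.57 to 1.98 RPKM in GFP and 5.61 to 6.35 RPKM in RBFOX1 libraries, and ERG was below 1 normalised count in the mean of each group. TEK made up most of that sum, at 1.63 ± 0.233 and then 4.74 ± 0.424 RPKM. The GFP libraries held few counts of PECAM1 (13, 5 and 8), CDH5 (2, 4 and 2) and VWF (2, 2 and 1). Of all tested protein-coding genes, 30.3% were higher. The part of the epithelial and endothelial markers in the laminin values was not tested.

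The widely used chains LAMB1 and LAMC1 fell together by about the same amount. LAMB1 (chromosome 7, 107923799 to 108003213, minus strand) read 12748, 13156 and 13047 in GFP and 8164, 8683 and 8533 in RBFOX1 libraries (log2 fold change -0.62, standard error 0.0467, adjusted p = 1.00e-09). LAMC1 (chromosome 1, 183023420 to 183145592, plus strand), the most widely used gamma chain, read 9312, 9563 and 9458 against 6450, 6071 and 6058 (log2 fold change -0.61, standard error 0.0469, adjusted p = 1.33e-09). Both were without overlap between the groups. LAMB2, the beta chain of synapses and the kidney filter, read 4775, 4935 and 4840 against 4832, 4584 and 4517, with overlapping groups and no call (log2 fold change -0.063, standard error 0.0469, adjusted p = 0.297). LAMC3 was near 10 normalised counts and did not pass (9.71, 14.0 and 11.6 against 12.7, 12.2 and 16.4, adjusted p = 0.482), and LAMB4, with 0, 3 and 2 counts in the RBFOX1 libraries and none in the others, was not tested.

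**Figure D3:**
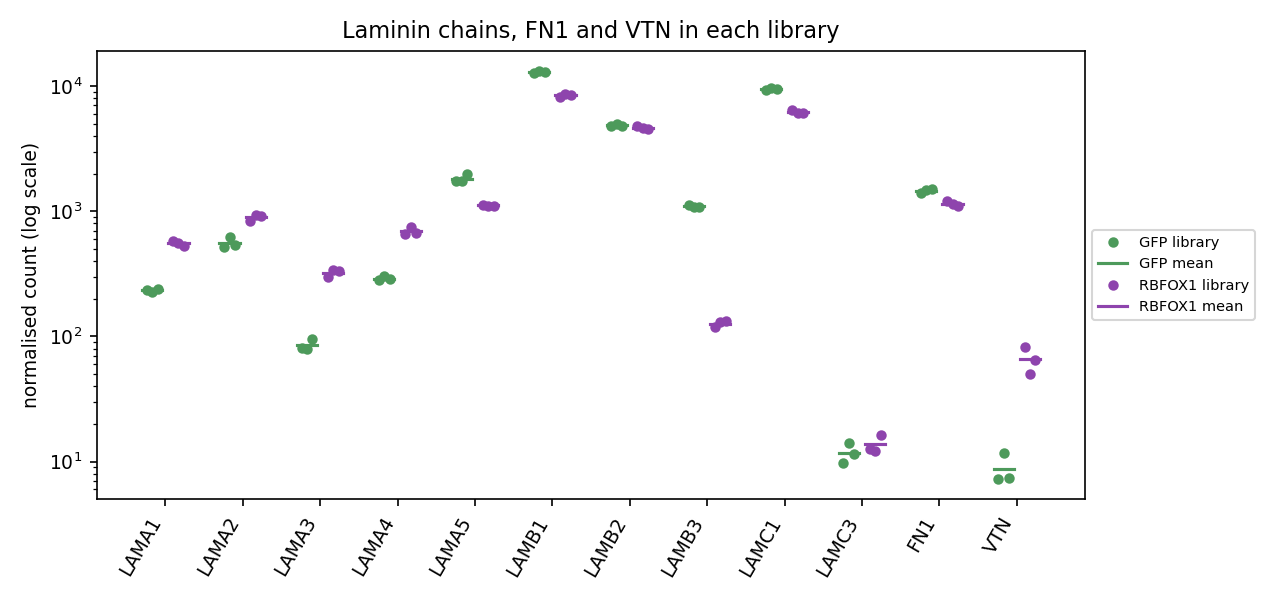
Normalised count (y axis, log scale) of laminin chains, FN1 and VTN, with a point for each of the 3 GFP and 3 RBFOX1 libraries and a line for the group mean. LAMA1 to LAMA4 and VTN lie higher in RBFOX1 libraries, LAMB3 lies far lower, and the LAMB2 and LAMC3 groups overlap.

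Because a laminin needs 1 chain of each class, the share of each alpha and beta chain within its class was computed from RPKM. LAMA5 fell from 55.0 ± 2.26% to 26.1 ± 1.00% of the alpha chain level, and LAMA4 rose from 13.9 ± 0.707% to 25.7 ± 1.01%. LAMA2 went from 19.99 ± 1.92% to 24.7 ± 0.965%, LAMA1 from 8.36% to 15.4% and LAMA3 from 2.76% to 8.11%. In GFP cells LAMA5 was thus the leading alpha chain, at 11.5 ± 0.873 RPKM, while in RBFOX1 cells LAMA5 at 7.01 ± 0.0769, LAMA4 at 6.92 ± 0.466 and LAMA2 at 6.66 ± 0.376 RPKM did not differ beyond their spread.

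In the beta class LAMB3 went from 7.97 ± 0.224% to 1.35 ± 0.0749%, LAMB2 from 24.9% to 34.8% and LAMB1 from 67.1% to 63.8%. With exons of all transcripts as the length, LAMB1 and LAMB2 changed places, at 42.6% and 43.1% in GFP and 39.3% and 58.4% in RBFOX1 cells. The alpha and beta chain shares kept their direction, LAMB3 going from 14.4% to 2.35% and LAMA5 from 65.8% to 34.3%. With those lengths LAMA5 still led LAMA4, at 25.5%, and LAMA2, at 14.9%, in RBFOX1 cells. With 3 against 3 libraries an exact two-sided permutation test of such a share cannot give a p below 0.1, so none is given.

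**Figure D4:**
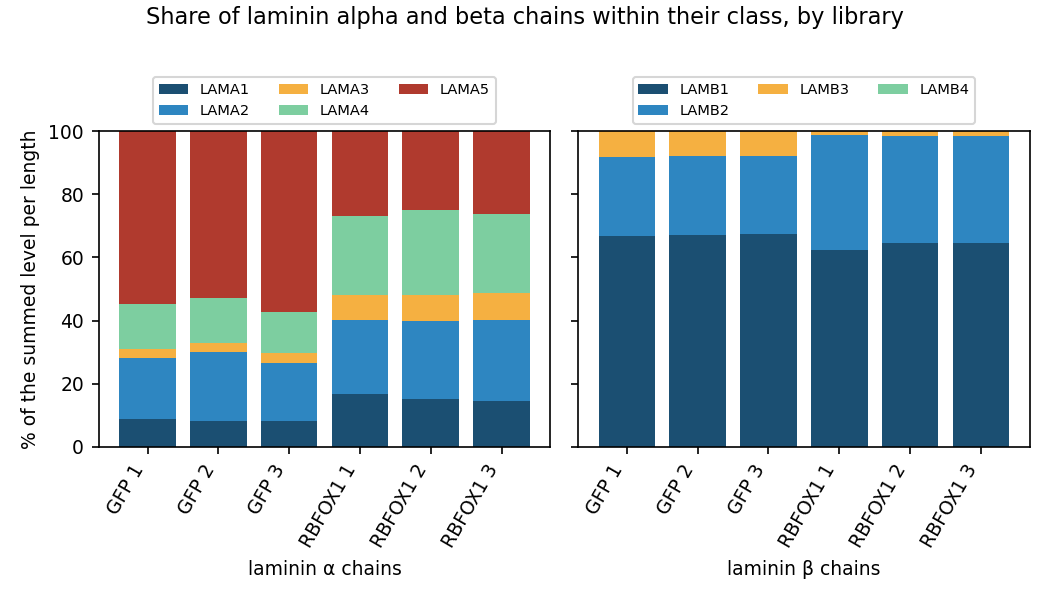
Share of each laminin chain in the summed level per length of its class (y axis, percent of RPKM), for the alpha and beta chains in each of the 6 libraries. LAMA5 shrinks from 55.0% to 26.1% of the alpha chains and LAMB3 from 7.97% to 1.35% of the beta chains, and the libraries of a group look alike.

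The alpha chains went from 20.9 ± 0.950 to 26.9 ± 0.758 RPKM, a ratio of 1.29, and the beta chains from 247 ± 3.42 to 169 ± 1.93 RPKM, a ratio of 0.685. The alpha chains had the lower summed level in both groups, and the gap was smaller in RBFOX1 cells.

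The RGD ligands FN1 and VTN differed in direction. FN1 (chromosome 2, 215360440 to 215436073, minus strand) read 1397, 1469 and 1492 in GFP and 1203, 1149 and 1095 in RBFOX1 libraries. The groups did not overlap, though the fall was small (log2 fold change -0.34, standard error 0.0559, adjusted p = 3.70e-05). VTN (chromosome 17, 28367284 to 28373091, minus strand), a plasma protein made mainly by liver, read 7.28, 11.7 and 7.37 against 81.6, 49.96 and 64.8. All RBFOX1 libraries were above all GFP libraries, and the gene was 7.47-fold higher (log2 fold change 2.90, standard error 0.267, adjusted p = 1.69e-08). The GFP values rest on 12, 10 and 7 counts, and VTN exons overlap another gene on the same strand by 329 bases, so its level is imprecise.

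Proteins that carry the integrin signal inside the cell were read from 29 genes listed by family, of which 27 were tested. Of these 8 were higher, 11 lower and 8 not past the threshold, with a median log2 fold change of -0.048. These shares, 29.6% higher and 40.7% lower, and those of the lists below stand beside 30.3% and 28.8% of all tested protein-coding genes. TLN2, a talin that switches integrins on by binding the beta tail, rose from 515 ± 24.0 to 1661 ± 94.3 (log2 fold change 1.69, adjusted p = 1.70e-14). FERMT2, the kindlin of adherent cells, rose from 799 ± 5.88 to 2059 ± 115 (log2 fold change 1.37, adjusted p = 8.61e-14), whereas FERMT3, the kindlin of blood cells, fell from 311 ± 2.15 to 143 ± 22.6 (log2 fold change -1.14, adjusted p = 1.13e-08). TNS2, a tensin of focal adhesions, rose by a log2 fold change of 0.76. TLN1, ILK and VCL had log2 fold changes of -0.024, -0.048 and -0.020 and did not pass. Other genes of this list passed with small changes. PXN (-0.44), PTK2 (-0.34), ACTN4 (-0.19) and FLNA (-0.14) were lower, and BCAR1 (0.21) and ACTN1 (0.22) were higher. Of 8 membrane proteins that bind integrins sideways, 3 were higher and 4 lower, with a median of -0.15. These included PLAUR, the urokinase receptor (log2 fold change -1.18), CAV1 of caveolae (0.97), and the tetraspanins CD9 (-0.63) and CD151 (-0.37).

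The partners of laminin in the basement membrane and the other matrix receptors were mixed as well. Of 14 basement membrane genes tested out of 16, 4 were higher and 8 lower, with a median of -0.32. The collagen-binding protein SPARC rose from 21504 ± 820 to 104548 ± 3254 (log2 fold change 2.28, adjusted p = 6.98e-18), while PXDN, which cross-links type IV collagen, NID1, which ties laminin to that collagen, and COL4A5 fell by 1.10, 0.88 and 0.84 on the log2 scale. Of the 9 receptors for matrix that are no integrins, 2 were higher and 5 lower, with a median of -0.15. The syndecan SDC2 was at a log2 fold change of 2.46 and its relative SDC4 at -2.13. BCAM, a receptor for LAMA5, was at 1.27 and CD44, the hyaluronan receptor, at -0.90. DAG1, the laminin receptor dystroglycan, was at 0.026 and did not pass (adjusted p = 0.737).

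The list of 19 other integrin ligands spanned the widest range of the 5 lists, from -3.66 to 8.33, with 8 of the 16 tested genes higher, 6 lower and a median of 0.70. POSTN, a matrix protein bound through ITGAV, went from 2.07 ± 1.79 to 784 ± 40.2 (log2 fold change 8.33, a fitted value that depends on the few GFP counts). VCAM1, the ligand of ITGA4, rose from 15.7 ± 1.75 to 238 ± 37.3 (log2 fold change 3.88, adjusted p = 3.56e-13). TNC, a matrix protein of glioma and wounds, fell from 903 ± 73.8 to 71.5 ± 2.77 (log2 fold change -3.66, adjusted p = 1.09e-16), and SPP1 (osteopontin) fell from 3095 ± 118 to 284 ± 22.9 (log2 fold change -3.43, adjusted p = 1.06e-18).

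**Figure D5:**
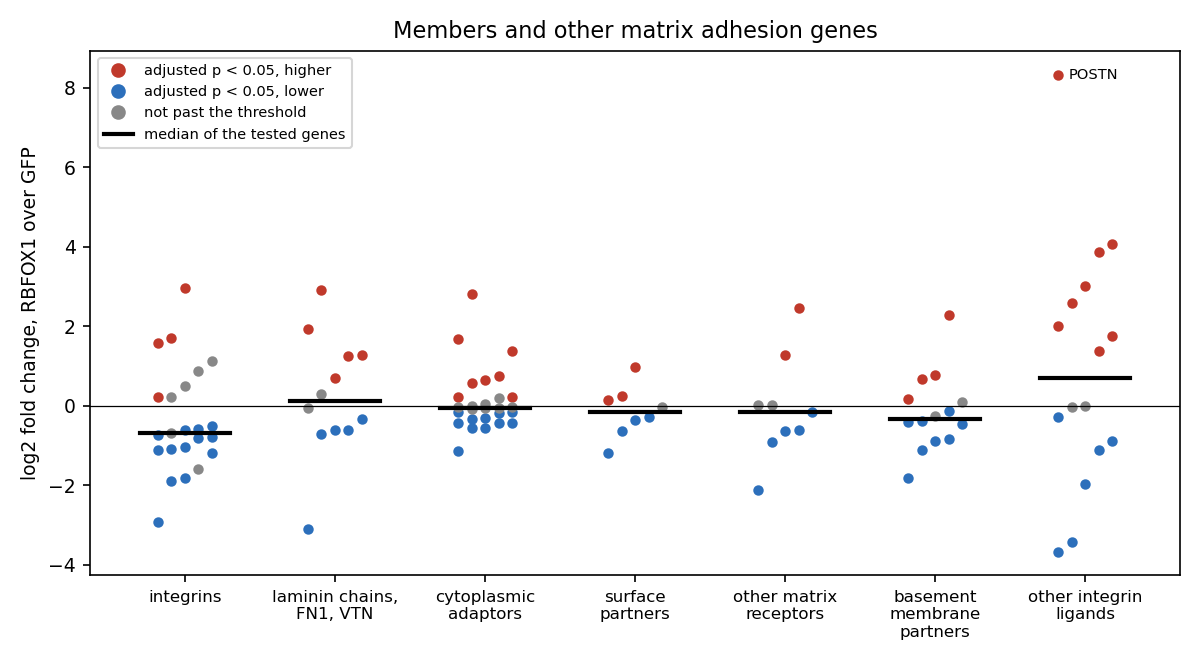
Log2 fold change (y axis, RBFOX1 over GFP) of tested genes in the member classes and in 5 lists of other matrix adhesion genes, coloured by call, with a bar for the median of the genes plotted. The integrin median lies at -0.69, that of the cytoplasmic adaptors at -0.048 and that of the other integrin ligands at 0.70.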

How the data were processed

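RNA from A172 cells with pLX317-GFP or pLX317-RBFOX1, 3 libraries each, was sequenced as 100 bp paired-end stranded reads after rRNA depletion. The authors used HISAT2 for alignment to GRCh38 and HTSeq for counting (intersection-strict) over Ensembl release 87 genes, versions of both tools not given in the sources used here, and deposited raw counts per gene. The strand setting of the counting is not given in the sources used here, so reads of a gene on the opposite strand may be among those of a member. A deposited table with the fold changes and p-values of the authors' own DESeq2 comparison was not used. Between 52.0 and 61.9% of read pairs fell on a gene, and the lines for other classes of reads were left out.

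Counts were TMM-normalised and tested with edgeR 4.0.16 (R 4.3.3, quasi-likelihood, two-sided, condition as the only term), with p-values adjusted by Benjamini-Hochberg over the 20536 genes that had 10 or more summed counts. Calls needed an adjusted p under 0.05. The code was tested on simulated data. RPKM used the canonical transcript length of GENCODE release 44, which matched 98.1% of identifiers and gave coordinates, UTRs and sequences. The replicate numbers did not pair the samples, and all replicate pairs differed beyond counting noise. The pairs with GFP library 1 differed most, with a variance 8.9 and 9.07 times that of counting alone, against 1.66 to 3.01 times for the other pairs. Intervals cover counting error only, and p-values measure the spread between these libraries.

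Members and lists were chosen with earlier results of these data known. All members enter the counts, and the values of 1 of them are not reported here. Values per library are given for members past the threshold that changed by 1 or more on the log2 scale or had a mean of at least 1000 normalised counts, and in some other cases chosen after the values were seen. In each list up to 4 genes past the threshold with the largest changes and a mean of at least 50 are named. TNS1, TLN1, ILK, VCL, PXN, PTK2, ACTN4, FLNA, BCAR1, ACTN1 and DAG1 were added after their values were seen. DESeq2 1.42.0, limma-voom (limma 3.58.1), other scalings and filters, thinned counts, a fold minimum, a replicate block and the omission of each library were alternatives.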

Additional observations from a re-analysis of the deposited data

How the results depend on the processing

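No member changed direction under any alternative, and 32 of the 36 tested members kept their side of the threshold under all of them, the fold minimum aside; ITGA1, ITGAE, ITGB3 and ITGB4 did not. A minimum change of 1 on the log2 scale moved the counts most: 1691 genes higher and 920 lower over all genes, 9 members lower, 3 adaptors higher and 1 lower, 1 basement membrane gene higher and 2 lower, 1 non-integrin receptor lower, and 0 surface partners higher and 1 lower. DESeq2 called 3948 genes higher and 3698 lower. The omission of any 1 library left every count within 1.5 times its main value. A fit with the replicate block called 4588 genes higher and 4458 lower, and 36 of 36 members kept their call and direction. Same-numbered libraries did not deviate together (r of -0.174, 0.0348 and -0.0586), so the numbers do not pair the samples. The scalings tried moved the median of all genes to between -0.019 and 0.0107. A filter by edgeR's filterByExpr left 32 members tested. Depth limits ITGA2B, ITGA9, ITGAL, ITGAD, ITGB2, ITGB3, ITGB6, ITGB7, LAMB4, LAMC3 and the GFP values of VTN, which rest on few counts. Overlapping exons can also leave out reads of ITGB3.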
